A study of Mus musculus with 2 samples.

Results

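The scavenger receptors of mouse bone marrow-derived macrophages (BMDMs) are described here across 2 microarrays, 1 from cells kept in medium and 1 from cells given apoptotic cell supernatant. The 9 genes are Olr1, Msr1, Marco, Cd68, Scarb1, Scarb2, Stab1, Stab2 and Cd163, out of 18194 genes that the array names by a single symbol. All 16 probe sets that the array annotation gives to these genes alone were taken, and Olr1 was set against the other 8. The genes were chosen by receptor family, with earlier results of these data known. Olr1 was singled out on its ratio of supernatant to medium signal in these same arrays, so its ratio is a description with no test.

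BMDMs are macrophages grown from bone marrow, here from C57BL/6J females aged 8 weeks and for more than 7 days with M-CSF, the growth factor that drives the macrophage lineage. The supernatant came from W3 cells, Fas-bearing mouse T cells of an established line, after 30 min with Fas ligand (FasL) and 60 min in fresh medium with 1% FCS. BMDMs received it, or RPMI with 10% FCS as control, for 1 hr, so the serum content of the 2 conditions also differed and cannot be told apart from the other contents of the supernatant. No array of supernatant from living W3 cells was analysed here, so the comparison does not separate apoptosis from culture with W3 cells. Each condition has 1 array, so no difference has a replicate, a p-value or an error, and in a culture a change in RNA per cell cannot be told apart from a change in the mix of cells.

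Scavenger receptors are cell-surface and endosomal proteins that bind modified lipoproteins, other polyanions, microbes and dying cells, and deliver them to lysosomes. They are grouped into classes by structure and not by common descent. Macrophages are known for class A receptors (Msr1 and Marco, trimers with a collagen-like stalk), class B receptors (Scarb1, which exchanges lipid with HDL, and Scarb2, a lysosomal membrane protein), and the class D glycoprotein Cd68. Olr1 encodes LOX-1, a class E receptor of the C-type lectin fold that binds oxidized LDL and is best known from endothelial cells. Stab1 and Stab2 (class H) clear matrix fragments and altered proteins, and Cd163 (class I) takes up complexes of haemoglobin with haptoglobin.

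Stab2 lay below the detection floor set out further on and has no ratio. Over all genes above that floor on either array, 0.96% were at least 2-fold higher with the supernatant and 0.843% lower. Of the 8 scavenger receptors with a ratio, only Olr1 differed by 2-fold or more. The windows before its transcription start, before that of Clec7a, which is its nearest protein-coding neighbour on 1 side and was also higher with the supernatant, and before that of Cd68, whose signals were nearly equal, are shown because these genes differ in response. They come from RefSeq (GRCm38.p6), run 5′ to 3′ on the strand of the gene, and hold the 250 bases before the start, at chr6:129507166-129507415 (minus strand) for Olr1, chr6:129472780-129473029 (minus strand, the start listed first) for Clec7a and chr11:69666171-69666420 (minus strand) for Cd68. Capitals mark matches to TGANTCA, the AP-1 site, and to TGACG, the core of the cAMP response element, on either strand.
Olr1: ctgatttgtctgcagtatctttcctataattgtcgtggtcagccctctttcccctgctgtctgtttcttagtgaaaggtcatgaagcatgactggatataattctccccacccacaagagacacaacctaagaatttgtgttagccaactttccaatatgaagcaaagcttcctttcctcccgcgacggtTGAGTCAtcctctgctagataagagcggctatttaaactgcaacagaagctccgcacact
Clec7a: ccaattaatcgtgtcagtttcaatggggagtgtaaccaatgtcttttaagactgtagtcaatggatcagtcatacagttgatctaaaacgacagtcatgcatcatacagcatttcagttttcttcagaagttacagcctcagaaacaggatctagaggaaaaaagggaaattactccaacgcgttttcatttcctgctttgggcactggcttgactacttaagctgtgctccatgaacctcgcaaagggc
Cd68: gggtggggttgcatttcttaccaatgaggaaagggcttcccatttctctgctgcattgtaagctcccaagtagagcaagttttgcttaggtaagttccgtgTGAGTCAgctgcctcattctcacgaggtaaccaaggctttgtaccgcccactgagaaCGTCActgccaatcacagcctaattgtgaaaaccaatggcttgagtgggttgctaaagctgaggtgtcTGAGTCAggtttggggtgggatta

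The Olr1 window held 1 AP-1 match, TGAGTCA, whose first base lies 60 bases before the start. The Clec7a window held no match to either motif or to TATAAA. The Cd68 window held 2 matches to the AP-1 site and 1 to TGACG. Of the 9 receptors 7 had a window in the table, and 2 of these 7 held an AP-1 match, 1 held TGACG and 0 held TATAAA. Over the windows of 27025 genes the AP-1 match was present in 6.87%, TGACG in 17.9% and TATAAA in 13.0%. A match describes the letters alone, and any part of it in the signals was not tested.

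Signals are MAS5 intensities on a linear scale, 1 value per probe set and array. Dim signals were judged against a floor of 38.4, the 95th percentile of 80 probe sets for odorant and pheromone (olfactory and vomeronasal) receptors, genes not thought to be active in macrophages, on the array where it was higher. Signals below the floor were set to it before ratios were formed, so a ratio with the medium signal below it is a lower bound and a ratio with the supernatant signal below it an upper bound. Each gene was read from its brightest probe set and called measured if that lay above the floor on either array. By this rule 8 of the 9 receptors and 11977 genes in all were measured, and 14 of the 16 receptor probe sets lay above the floor on both arrays.

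Olr1 read 25.3 with medium and 248 with apoptotic cell supernatant. The medium signal lay below the floor, inside the range of the olfactory and vomeronasal probe sets, of which 14 of 80 were brighter. The supernatant signal was above all 80. Olr1 was therefore at least 6.45-fold higher, a log2 ratio of at least 2.69, while the signals as deposited differ by 9.81-fold. It is read by a single probe set, which has no suffix for shared probes, so no other probe set bears on it. Against the highest signal of any olfactory or vomeronasal probe set on either array (62.4), a floor chosen after the data were seen, it was at least 3.97-fold higher.

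**Figure D1:**
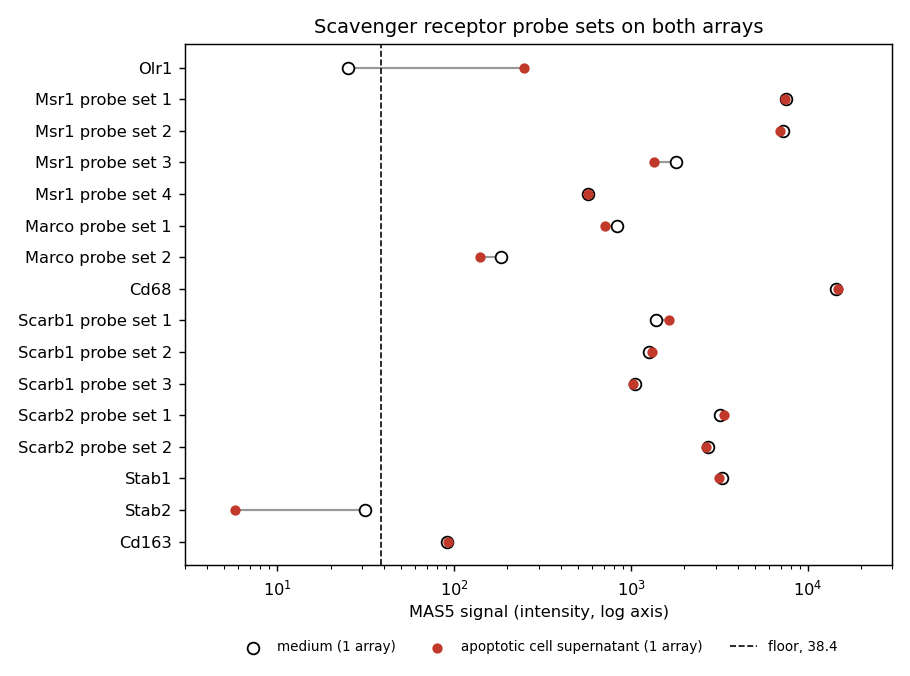
MAS5 signal (intensity, log axis) of each of the 16 probe sets of the scavenger receptors, on the medium array (open circles) and the supernatant array (red circles); the dashed line is the floor (38.4), and probe sets of a gene are numbered from the brightest. Olr1 runs from 25.3 to 248 across the floor, Stab2 lies below it on both arrays, and the other circles nearly coincide.

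Of the 8 measured receptors, 1 was higher by 2-fold or more and 0 were lower by as much. Over all measured genes these shares were 0.96% and 0.843%. Because Olr1 was picked for its ratio, nothing is read from that count. In 547 genes the signal lay below the floor with medium and above it with the supernatant, and in 734 the reverse held. Among those 547 genes the supernatant signal of Olr1 came next after those of the transcription factors Mycn, Nr4a3 and Fosb, and 25 of the 547 were at least 2-fold higher, while 35 of the 734 were at least 2-fold lower.

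The 5 genes nearest to Olr1, by the distance between pairs of floored log2 signals over the 2 arrays, were Fosb, B3gnt5, Hs3st2, Dmkn and Tal2. Fosb, an AP-1 subunit, was the nearest at a distance of 0.30, with signals of 35.6 and 305. B3gnt5, a glycosyltransferase of glycolipid synthesis, read 40.4 and 173, and Hs3st2, which sulfates heparan chains, read 15.7 and 171. Dmkn read 52.6 and 183, and Tal2, a transcription factor, read 33.2 and 160. With 2 arrays this likeness amounts to a dim medium signal and a brighter supernatant signal.

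The class A receptors Msr1 and Marco read much the same on both arrays or somewhat dimmer with the supernatant. Msr1, the macrophage receptor for acetylated LDL, read 7545 with medium and 7416 with the supernatant on its brightest probe set, a ratio of 0.983. Its second probe set read 7188 and 6926, and its dimmest 570 and 573. The remaining one, which carries the _a suffix of probe sets that read several transcripts of a gene, read 1799 and 1342, a ratio of 0.746. That was the lowest ratio of the 14 receptor probe sets that cleared the floor with medium and with the supernatant, and the other 3 probe sets of Msr1 lay between 0.964 and 1.01.

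Marco, which binds bacteria and particles, read 834 and 712, a ratio of 0.853. Its second probe set, with the _s suffix of probes shared by similar transcripts, read 184 and 139, a ratio of 0.756. Both probe sets were dimmer with the supernatant, and the log2 ratio of the brighter was -0.23. How far probe sets of a gene disagree was taken from 5196 genes with at least 2 probe sets brighter than the floor throughout, as the SD of the gap in log2 ratio between the brightest pair over the square root of 2, which came to 0.25. The brighter Marco probe set lay within this figure and the dimmer, at -0.40, beyond it. The figure covers no biological or array error.

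The class B receptors Scarb1 and Scarb2 had ratios near 1. Scarb1 read 1378 with medium and 1640 with the supernatant on its brightest probe set, a ratio of 1.19 and the highest after Olr1. Its other probe sets read 1261 and 1316, and 1050 and 1029, ratios of 1.04 and 0.98. The ratio of 1.19 is thus not borne by the other 2, and all 3 carry a suffix for shared or alternative transcripts. Scarb2, which carries the lysosomal enzyme glucocerebrosidase to lysosomes, read 3167 and 3349 on 1 probe set and 2718 and 2640 on the other. Its probe sets thus lay at ratios of 1.06 and 0.971, on opposite sides of 1.

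Cd68, the class D glycoprotein of macrophage endosomes and lysosomes, read 14456 with medium and 14760 with the supernatant, a ratio of 1.02. Stab1, which macrophages use to clear matrix debris and altered lipoproteins, read 3280 and 3150, a ratio of 0.96. Stab2, known from the endothelium of liver sinusoids, read 31.4 and 5.75, both below the floor, and has no ratio here. Of the 80 olfactory and vomeronasal probe sets 8 were brighter than Stab2 with medium and 51 with the supernatant. Cd163 read 90.8 and 92.3, a ratio of 1.02, above the floor and above the brightest olfactory or vomeronasal probe set on both arrays. Each of these 4 genes is read by 1 probe set.

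The log2 ratios of the 7 measured receptors other than Olr1 ran from -0.23 in Marco to 0.25 in Scarb1, with a median of 0.02, and the median of all measured genes was -0.02. The bound for Olr1 exceeded that median by 2.67 on the log2 scale. In order of ratio after Olr1 they were Scarb1, Scarb2, Cd68, Cd163, Msr1, Stab1 and Marco. Neighbours in this order differed by less than 0.25, the SD given above for a single probe set, except Olr1 and Scarb1. Of all measured genes 68.8% lay between the lowest and the highest of these 7, so a ratio so close to 1 is the common case. Of the 7 genes 4 had ratios above 1 and 3 below, and with each array centred on its median the split was 6 and 1, as Msr1 and Stab1 changed sides.

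Dim genes scatter more between the arrays than bright ones, so each receptor was also placed among genes of like brightness. Measured genes were divided into 4 equal groups by the geometric mean of their floored signals. In the dimmest group, which holds Olr1 and Cd163, 1.74% of 2995 genes were higher by 2-fold or more and 2.77% lower, and the 5th and 95th percentiles of the log2 ratio were -0.87 and 0.74. The bound of 2.69 for Olr1 lay above the upper of these, but Olr1 was picked for this ratio, so nothing is read from its place. In the brightest group, with Msr1, Cd68, Scarb2 and Stab1, these percentiles were -0.20 and 0.23, and in the next, with Marco and Scarb1, -0.32 and 0.35. All 7 measured receptors other than Olr1 lay between the percentiles of their group. Most genes of a group do so by definition, and nothing is read from this count.

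**Figure D2:**
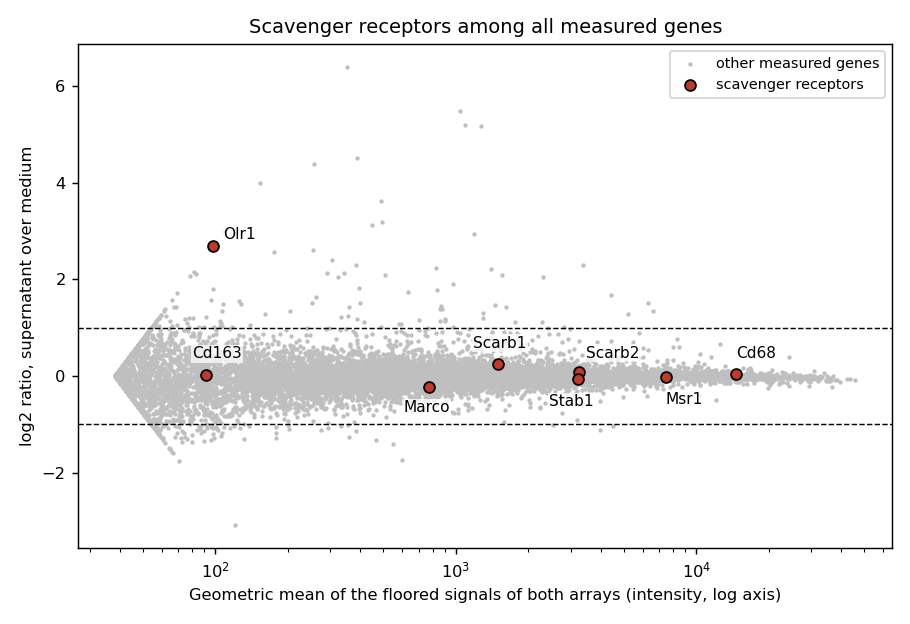
Floored signal ratio (log2, supernatant over medium) against the geometric mean of both floored signals (intensity, log axis) for the 11977 measured genes (grey) and the 8 measured scavenger receptors (red), 1 array per condition, with dashed lines at a 2-fold difference. Olr1, a lower bound, lies at 2.69 above a dim mean signal, and the other 7 lie between -0.23 and 0.25.

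Other genes of the pathway came from lists that were written with earlier results of these data known. Of 17 further receptors with scavenger function 12 were measured, of which 1 was higher by 2-fold or more and 0 lower, with a median log2 ratio of 0.15. Over all measured genes 0.96% were higher by as much and 0.843% lower, and nothing is read from the count. The higher receptor was Clec7a, which encodes Dectin-1, the receptor for fungal beta-glucan. Its signals were 824 and 2025 on its 1 probe set, 2.46-fold higher. Both signals lay well above the floor, and the ratio ran from 2.39 to 2.64 over the other settings. Next came Scarf1, a receptor for acetylated LDL, with 117 and 214, a ratio of 1.82. Ager, the receptor for advanced glycation end products, read 18.7, below the floor, and 53.3, a ratio of at least 1.39. Cd36, the class B receptor for oxidized LDL, named after its values were seen, read 19706 and 21565, a ratio of 1.09.

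Olr1 and Clec7a both encode lectin-like receptors, and 12 of 19 listed C-type lectin receptors, a list that also holds Clec7a, were measured. Clec7a was again the 1 gene at least 2-fold higher, 0 were at least 2-fold lower, and the median log2 ratio was 0.05. The shares over all measured genes were 0.96% and 0.843%, and nothing is read from this count. Clec4n, which encodes Dectin-2, a receptor for fungal mannan, read 468 and 837, a ratio of 1.79, on a probe set with the _s suffix. Clec10a, a lectin for galactose-type sugars, read 138 and 75.2, a ratio of 0.546. Ratios within this list thus lay on both sides of 1.

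In the lists for the cargo of these receptors, no measured gene was at least 2-fold higher or lower, against 0.96% and 0.843% of all measured genes. For lipoprotein uptake and lipid handling 16 of 20 genes were measured, with a median log2 ratio of -0.07. The largest differences were in Abcg1, a cholesterol exporter (1126 and 805, ratio 0.715), Nr1h3, the oxysterol receptor LXR alpha (143 and 122, ratio 0.85), and Pparg, a nuclear receptor for fatty acids (686 and 777, ratio 1.13). For haem and iron handling, the fate of cargo taken up by Cd163, 12 of 15 were measured, with a median of -0.02. Nfe2l2, the transcription factor NRF2, had a ratio of 1.19, Hmox1, which degrades haem, 0.887, and Blvra, a biliverdin reductase, 1.13. Among 10 of 13 measured genes of the lysosomal membrane and its cargo the median was -0.05, and Tfeb, a transcription factor for lysosomal genes, had the lowest ratio, 0.645 (419 and 270). Mcoln1, a lysosomal ion channel, and Ctsl, a cathepsin, followed with ratios of 0.895 and 0.942.

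**Figure D3:**
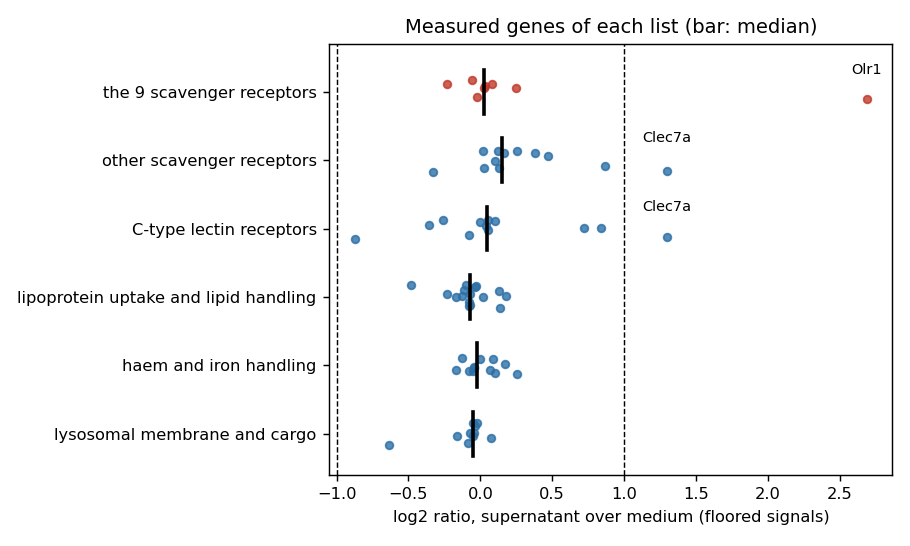
Floored signal ratio (log2, supernatant over medium) of each measured gene (points, spread vertically for legibility) in 6 lists, where bars give list medians and dashed lines a 2-fold difference; 1 array per condition. Olr1 (2.69, a lower bound) and Clec7a (1.30, in both lists that hold it) are the only genes beyond the dashed lines.

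The 5 protein-coding genes on each side of every receptor, by the gene order of RefSeq (GRCm38.p6), were looked up after the values of Olr1 and Clec7a had been seen. Beside Olr1 lie Clec7a, at 2.46-fold higher, and on the other side Tmem52b, which was below the floor on both arrays. Of the 10 genes around Olr1 9 had a probe set of their own and 3 were measured. These were Clec7a, Gabarapl1, an autophagy protein, at a ratio of 1.12, and Clec1b, a platelet lectin, at 0.783. Clec1a, Clec12b and the natural killer receptor genes Klre1, Klrd1 and Klrk1 were below the floor. Around the other 8 receptors, with 3 to 9 measured neighbours each, 1 neighbour, Ccdc92 near Scarb1, was higher by 2-fold or more (53.5 and 122, ratio 2.29) and 0 were lower by as much. Over all measured genes 0.96% were higher by 2-fold or more, and nothing is read from these counts.

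**Figure D4:**
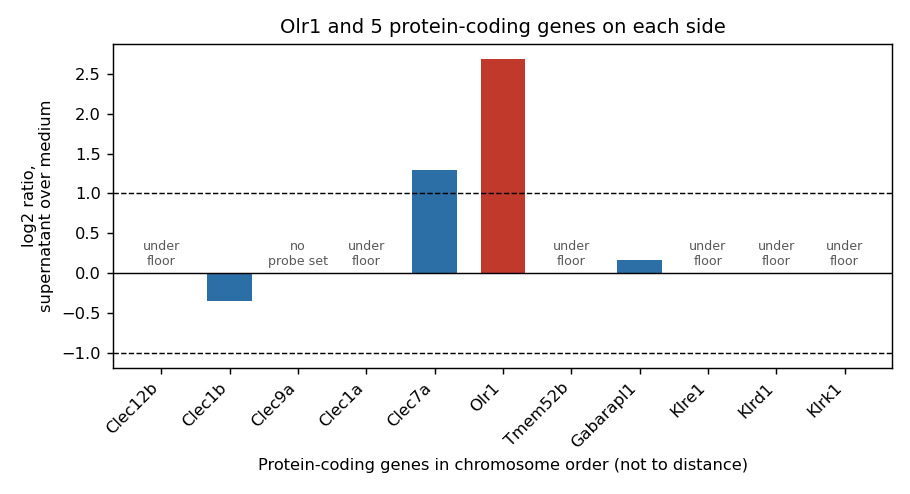
Floored signal ratio (log2, supernatant over medium) for Olr1 (red) and the 5 protein-coding genes on each side (blue) in chromosome order, not drawn to distance; dashed lines mark a 2-fold difference, and genes below the floor on both arrays or without a probe set of their own are named as such. Olr1 (2.69, a lower bound) and the adjacent Clec7a (1.30) exceed 1, and Clec1b and Gabarapl1 lie at -0.35 and 0.17.

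The label of the cells was checked against markers. All 12 macrophage markers were above the floor, among them Adgre1 (16160 and 15781) and Csf1r (30999 and 28572), and 1 of them, the engulfment receptor Mertk, was 2.23-fold higher (471 and 1050). Of 11 T cell markers on the array 8, among them Cd3d, Cd3e and Thy1, were below the floor on both arrays. The 3 measured ones, named after their values were seen, were Cd28 (393 and 283), Cd5 (65.9 and 42.8) and Cd8a (72.9 and 20.7, the latter below the floor). The summed signal of the T cell list was 658 with medium and 419 with the supernatant. This and the later sums use the signals as deposited, also those below the floor. Olr1 is also known from endothelium, and of 12 endothelial markers 5, among them Pecam1, were below the floor. Cdh5 read 51.7 and 26.1, the latter below the floor. The brightest endothelial markers, named after their values were seen, were Kdr (320 and 258) and Vwf (154 and 187). The sums over this list were 813 and 784. Floored log2 ratios of the 7 measured endothelial markers, some of them bounds, ran from -0.46 to 0.91. The highest was that of Esam, named after its values were seen (37.9, below the floor, and 72.3). Of 8 neutrophil markers 4 were measured, with sums of 444 and 669. In that list S100a8 read 391 and 462, and S100a9, named after its values were seen, 5.85 and 73.0, a ratio of at least 1.90. The sums of 8 stromal markers, 7 of them below the floor, among them Col1a1, were 80.8 and 182. The 1 measured stromal marker, Col1a2, named after its values were seen, read 41.6 and 48.3. Most of the rise in the stromal sum thus came from signals below the floor. The neutrophil and stromal sums were higher on the array where Olr1 was higher, and their part in the result was not tested. Dendritic cell markers (4 of 8 measured) summed to 330 and 299, and B cell markers (3 of 5) to 217 and 159. Of 10 housekeeping genes 0 differed by 2-fold, with log2 ratios from -0.12 to 0.05.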

How the data were processed

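RNA was labelled with the 3' IVT Express kit and hybridized to Affymetrix Mouse Genome arrays, 1 per condition. The values deposited by the authors are linear intensities for 45101 probe sets, made with MAS5 by the submitters' processing notes. After trimming 2% at each end the mean was 500.0 on both arrays. Median signals were 53.0 (medium) and 49.3 (supernatant). A genome build is not given in the sources used here, and precision is limited by the number of arrays.

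Conditions came from the sample labels. By the array annotation 34958 probe sets had 1 gene and 932 had several, and 9211 were unlisted. A lookup by Entrez identifier in RefSeq (GRCm38.p6) covered 34754 and altered 0 symbols. Probe sets with several genes were used for none. The receptors and gene lists were chosen with earlier results of these data known. The text names all 9 receptors with every probe set, list genes that differ by 2-fold or are among the 3 largest differences of a list, the 5 genes nearest to Olr1, and set markers. Neighbours of each receptor, Mertk, Mycn and Nr4a3, and other genes marked so in the text, were added after their values were seen. Promoter windows came from RefSeq, with no entry for Msr1 and Scarb1.

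No test was run. The steps were tested on simulated data, in which only genes with a medium signal well above the floor were altered. The simulated noise was smaller than the scatter between these arrays. Ratios that are bounds, as for Olr1, were therefore not covered. Alternatives were median-centring, quantile normalization, loess (span 30%), other floors, a pseudocount, the mean of a gene's probe sets and unsuffixed probe sets alone, with the floor recomputed after each scaling. Python 3.11.15, numpy 2.4.6, pandas 2.3.3, statsmodels 0.14.6 and matplotlib 3.10.9 were used.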

Additional observations from a re-analysis of the deposited data

How the results depend on the processing

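No paired analysis was possible because either condition is represented by a single array. Olr1 was the only receptor at least 2-fold higher in the reported setting and in all 10 alternatives, of which the floor at the highest receptor signal was chosen after the data were seen. Because Olr1 was picked for its ratio, nothing is read from that. It has 1 probe set without a suffix, so the settings on probe sets could not change its ratio. Every floor tried, up to 76.8, lay well below its supernatant signal of 248. The size of the Olr1 difference depended on the floor, since its medium signal lies below the reported one. The log2 ratio of Olr1, 2.69 as reported, was 3.29 without a floor and again when the floor was the median olfactory and vomeronasal signal (10.0), 1.69 with the floor 2 times as high (76.8), 2.17 with the floor as a pseudocount and 1.99 with the floor at the highest receptor signal. Its excess over the median of the others, 2.67 as reported, was 3.29, 3.29, 1.67, 2.15 and 1.97 in the same settings. Receptors at least 2-fold lower numbered 0, and 1 with no floor or the median floor. That 1 was Stab2, at -2.45 and -1.65, whose signals lie below the reported floor on both arrays. The median of the other receptors stayed between -0.00 and 0.13. The 7 measured ones ran from -0.32 to 0.36 over the settings. Without suffixed probe sets Scarb1 and Stab1 had no value. Over all genes 115 were at least 2-fold higher and 101 lower. These counts were 1865 and 2116 with no floor, 975 and 1158 with the median floor, 77 and 27 with the doubled floor, and 83 and 45 with the floor at the highest receptor signal. They were 167 and 157 with the mean of all probe sets, 160 and 67 when median-centred, 145 and 74 when quantile normalized, and 135 and 71 with loess. Median-centring added 0.10 to the log2 ratio of signals above the floor, which put Msr1 and Stab1 above 0. The cause of the other shifts was not tested.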
